A study of Mus musculus with 26 samples.

Results

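Collagenase digestion splits epididymal fat into floating adipocytes and a pellet of stromal vascular cells (SVCs), and here both fractions were compared in formerly obese mice. The members were 6 RNA sequencing libraries, 3 of adipocytes (numbered 407, 408 and 409) and 3 of SVCs (412, 413 and 414), out of 15 libraries of the series that could be assigned to a group. All mice were male C57BL/6J wild type animals that carried no engineered allele and entered the study at 9 to 10 weeks of age. The formerly obese mice, called SW for switch, ate a diet with 60% fat (HFD) for 9 weeks and then one with 10% fat (LFD) for 3 weeks. The HFD group used for comparison stayed on the 60% fat diet for 12 weeks and contributed 3 adipocyte and 2 SVC libraries. The sample titles of the SW mice name the low fat diet, and the switch is given by their treatment label. Red blood cells were lysed in the SVC pellet during preparation, which did not involve sorting of cells, so each fraction was a mixture. The sources used here do not say whether the libraries came from separate animals, and the p-values below measure the spread between these libraries only.

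Mature adipocytes store triglyceride in 1 large droplet, take up fatty acids and glucose under the control of insulin, release fatty acids when catecholamines act on beta adrenergic receptors, and secrete hormones such as leptin and adiponectin. The stromal vascular fraction holds fibroblasts and the progenitors from which adipocytes form, macrophages and other leukocytes, endothelial and mural cells of the vessels, and mesothelial cells of the surface. In obesity macrophages gather around adipocytes and take up their lipid. The comparison asks which genes and functions belong to each fraction once the mice have lost weight.

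The 6 libraries held 10121939 to 22195810 counts over 39017 genes, so that 3 counts corresponded to 0.135 to 0.296 CPM (counts per 1000000 counts), and 17964 to 21264 genes were detected in each. No library was a copy of another, since replicate pairs were 12.8 to 89.5 times as far apart as counting error alone allows, by chi-square over its degrees of freedom. Library 407 stood apart through the ribosomal RNA gene Gm26924, at 50181 CPM against 4758 and 5494 CPM in the other adipocyte libraries and 1721 to 4964 CPM in SVCs. Hemoglobin genes held 2.76% to 3.57% of SVC counts and 0.134% to 0.179% of adipocyte counts. The fractions were deposited in separate tables, and the SVC records of SW mice included single as well as paired-end runs while the adipocyte records were paired-end alone, so fraction, table and run layout cannot be told apart.

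A base composition difference ran through the whole comparison. When the genes were ordered by the GC content of their transcripts and divided into 10 bins of equal size, the median log2 ratio of adipocytes to SVCs was 1.84 in the bin of lowest GC and −1.27 in the bin of highest GC. The tilt lay mostly in the SVC libraries of SW mice, whose highest GC bin exceeded the lowest by 1.99 to 2.67 on the log2 scale, against 2.27 in the LFD SVC library, −0.56 and 0.38 in the HFD SVC libraries and −1.35 to −0.68 in adipocyte libraries. A second fit therefore carried an offset for each library and gene that flattened this trend, after which the bin medians lay between −0.15 and 0.16. Its values are called GC corrected below and are given for named genes where they turn a direction or end a call and for lists where they move a printed count by over 1.5 times. Why the libraries differ in this way was not tested.

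**Figure D1:**
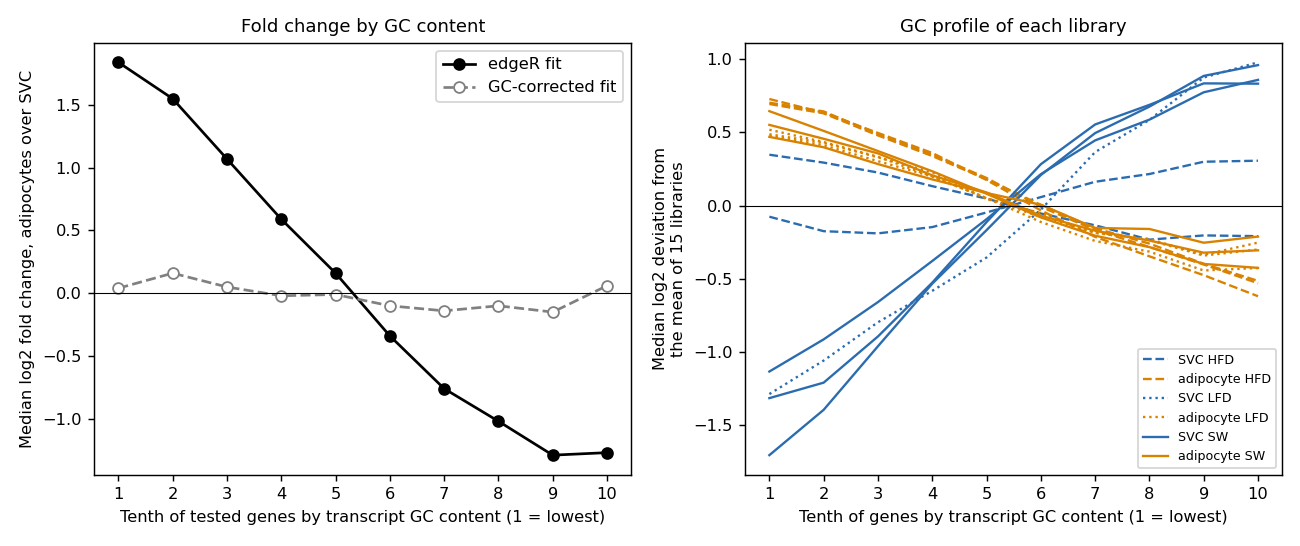
Left, median log2 ratio of adipocytes to SVCs of SW mice in 10 bins of genes ordered by GC content, in the fit as counted (filled) and GC corrected (open), and right, the median log2 deviation of each of the 15 libraries from their mean in such bins, 1 line per library. The counted medians fall from 1.84 to −1.27 across the bins and the corrected ones stay between −0.15 and 0.16, while the lines of the SW and LFD SVC libraries rise and those of all adipocyte libraries fall.

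Most genes differed between the fractions. Of 14210 genes tested, 5143 (36.2%) were higher in adipocytes and 5231 (36.8%) were higher in SVCs by edgeR's quasi-likelihood test with an adjusted p under 0.05, and the median log2 ratio of all genes was 0.02. Scaling by library totals alone shifted that median to 0.45 and the split to 6294 against 3834. A gene was said to mark a fraction when the test against a 4-fold difference passed the same threshold, which 729 genes (5.13%) did for adipocytes and 739 (5.2%) for SVCs. Leaving out 1 library moved the first of these counts to 478 without library 412 and to 1141 without library 413, and the second to 469 without library 412, to 1436 without library 414 and to 346 to 470 without any one of the adipocyte libraries. With the GC correction 4122 genes (29%) were higher in adipocytes and 4377 (30.8%) in SVCs, and 386 (2.72%) and 283 (1.99%) marked them. Both fits named 273 of the adipocyte marks and 193 of the SVC marks, while 225 genes went from higher in adipocytes to higher in SVCs and 202 went the other way. In 5497 genes every adipocyte library lay above every SVC library, and in 5412 the reverse held.

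**Figure D2:**
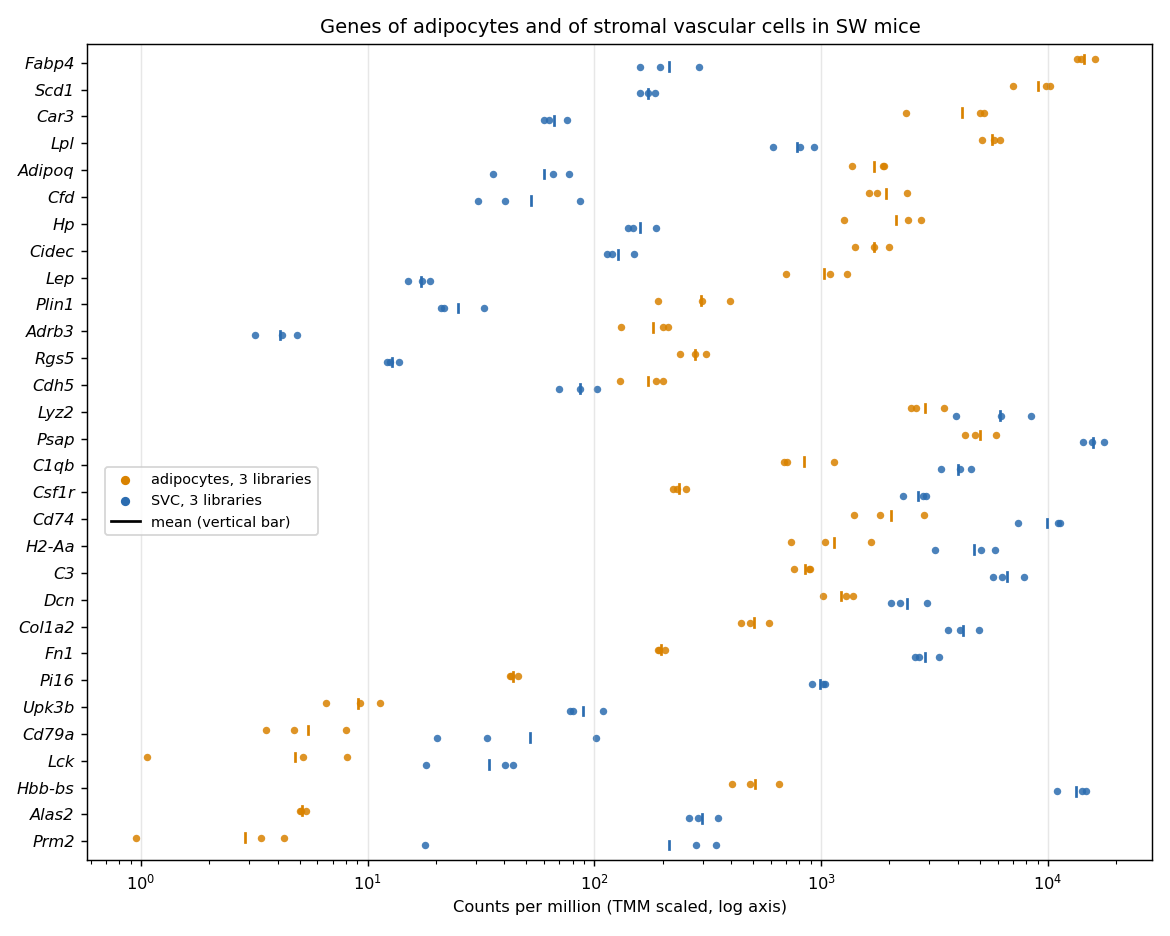
TMM scaled CPM (log axis) of 30 genes in each adipocyte and SVC library of SW mice, with vertical bars at the means. The fractions do not overlap for any gene plotted, from Fabp4 at 13380 to 16103 CPM in adipocytes against 159 to 288 CPM in SVCs down to Prm2, where SVC library 414 lies far below the other SVC libraries.

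The adipocyte fraction was led by genes of fat storage. Fabp4, which carries fatty acids inside the cell, measured 16103, 13987 and 13380 CPM in adipocytes and 288, 195 and 159 CPM in SVCs. It was 67.7-fold higher in adipocytes, a log2 ratio of 6.08 ± 0.33 (SE; edgeR adjusted p = 9.77e-06), and 4.60 with GC correction. Scd1, the desaturase that makes oleic acid, measured 7042, 10206 and 9769 CPM against 184, 159 and 172 CPM, a 52.5-fold difference. Car3, an adipocyte carbonic anhydrase, measured 2356, 5213 and 5028 CPM against 76.0, 63.2 and 59.8 CPM. The lipid droplet protein Cidec and the secreted proteins Cfd (adipsin, a complement protease), Adipoq (adiponectin) and Hp (haptoglobin) were 13.4-fold, 36.9-fold, 28.7-fold and 13.5-fold higher, with no overlap between the fractions. Lpl, which frees fatty acids from lipoproteins, and Cd36, which takes them up, were also abundant in both fractions. Lpl stood at 610 to 928 CPM in SVCs and 5133 to 6166 CPM in adipocytes, and neither gene marked adipocytes after GC correction, when their log2 ratios were 1.56 and 1.15.

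The 13 adipocyte markers were listed for a check of the labels with earlier results of these data known. All 13 were higher in adipocytes and 12 marked them, with a median log2 ratio of 3.94 against 0.02 over all genes. Their summed level was 8579 to 10561 CPM in adipocytes and 454 to 673 CPM in SVCs, so that the median marker was present in SVCs at 6.51% of its adipocyte level. None of the 13 was at 0 in the SVC fraction. In such mixed samples fewer cells of a type and less RNA per cell cannot be told apart. The aquaglyceroporin Aqp7 was the marker that did not pass the 4-fold test.

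Lep, the gene of the hormone by which fat stores curb appetite, measured 1091, 702 and 1296 CPM in adipocytes against 18.8, 17.4 and 15.1 CPM in SVCs. That was 60.3-fold higher (log2 ratio 5.91 ± 0.30, edgeR adjusted p = 9.09e-06, GC corrected 5.69). The 120 bases before its start are printed because they hold TTGCGCAA, the palindromic motif of C/EBP factors, here in capitals and 55 bases upstream of the start (RefSeq, GRCm38.p6, chr6:29060101-29060220, plus strand).
Lep: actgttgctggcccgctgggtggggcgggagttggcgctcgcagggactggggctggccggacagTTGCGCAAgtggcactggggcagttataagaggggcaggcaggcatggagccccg
Among 27025 genes with a promoter in the RefSeq table, 0.185% held this motif on either strand within 250 bases before the start, and of 10 adipocyte markers with a promoter Lep was the single one. The looser form TTGCNNAA, which includes it, occurred in 3 of the 10, in 5 of 24 lysosomal genes and in 10.8% of all promoters.

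Most genes that make, hold or break down stored fat were higher in adipocytes. Of all genes tested 36.2% were higher in adipocytes and 5.13% marked them, while 36.8% were higher in SVCs. Of 17 genes of the lipid droplet and lipolysis, 13 were higher in adipocytes, 8 marked them and 2 were higher in SVCs, with a median log2 ratio of 2.51, and with GC correction 15 were higher in adipocytes and 1 in SVCs. Pnpla3, a lipase relative on the droplet, measured 148, 112 and 174 CPM against 5.71, 3.65 and 4.32 CPM, and Lipe, the hormone-sensitive lipase, was 6.76-fold higher. Pnpla2, the lipase that starts triglyceride breakdown, was 4.08-fold higher (log2 ratio 2.03 ± 0.23, edgeR adjusted p = 0.000139) and passed the 4-fold test only after GC correction. Of 14 fatty acid synthesis genes 13 were higher in adipocytes and 6 marked them, with a median of 2.33. Their members included Fasn, the fatty acid synthase, at 1051, 1147 and 1203 CPM against 272, 206 and 222 CPM, the carboxylase Acaca at 8.34-fold, the malic enzyme Me1 at 14.7-fold and Thrsp, a lipogenic regulator, at 17.3-fold. Srebf1, the transcription factor of lipogenesis, overlapped between the fractions with a log2 ratio of −0.18 (edgeR adjusted p = 0.43), which became 1.08 with GC correction. Of 21 genes of fatty acid uptake and triglyceride synthesis, 15 were higher in adipocytes, 9 marked them and 3 were higher in SVCs, the last becoming 1 with GC correction.

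The receptors through which hormones reach these enzymes were also mostly higher in adipocytes. This was so for 36.2% of all genes tested, and 5.13% marked adipocytes. Of 15 lipolytic and antilipolytic receptors, 11 were higher in adipocytes and 9 marked them, with a median log2 ratio of 3.12. Npr3, the clearance receptor of natriuretic peptides, measured 263, 317 and 446 CPM in adipocytes and 5.59, 5.16 and 5.18 CPM in SVCs, a 64.4-fold difference. Npr1, the signalling receptor for the same peptides, went the other way at 54.9 to 65.3 CPM in adipocytes and 240 to 259 CPM in SVCs (log2 ratio −2.01 ± 0.13, GC corrected −0.82). Adrb3, the beta adrenergic receptor of rodent fat, measured 131, 211 and 201 CPM against 4.89, 3.17 and 4.19 CPM. The thyrotropin receptor Tshr, the short chain fatty acid receptor Ffar2, the prostaglandin receptor Ptger3 and the niacin receptor Hcar2 were 48.9-fold, 33.6-fold, 19.1-fold and 13.2-fold higher in adipocytes. Of 17 insulin signalling genes, 11 were higher in adipocytes and 3 in SVCs (1 with GC correction), among the first the receptor Insr at 34.1 to 51.1 CPM against 5.01 to 10.4 CPM. Of 15 adipokines, 11 were higher in adipocytes and 9 marked them, with a median of 4.09. Retn (resistin) was 39.9-fold higher in adipocytes, whereas Agt (angiotensinogen) was 3.21-fold and the lipocalin Lcn2 3.57-fold higher in SVCs, and the call for Agt ended after GC correction (log2 ratio −0.57, edgeR adjusted p = 0.0575).

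By size of fold among genes with at least 50 CPM in adipocytes and over 3 counts in every SVC library, B3galt2 (a galactosyltransferase), Lgals12 (a galectin of the lipid droplet), Ubd (a ubiquitin-like protein), Fabp4 and Orm1 (an acute phase plasma protein) led. B3galt2 measured 40.4, 96.0 and 83.4 CPM against 0.816, 0.536 and 0.740 CPM, and Lgals12 measured 38.1, 80.2 and 77.8 CPM against 1.05, 0.584 and 0.493 CPM. Library 407 was the lowest adipocyte library for both genes, and it was the highest for Ubd at 344 CPM against 187 and 191 CPM. Further marks that were abundant per length of transcript were Dbi, which binds acyl-CoA, at 19.4-fold and the interferon response gene Ifi27l2a at 6.81-fold.

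The counts of mitochondrial genes stand beside 36.2% of all genes tested higher in adipocytes and 36.8% in SVCs. With GC correction these shares were 29% and 30.8%. As counted, each list of mitochondrial genes held more calls in adipocytes than in SVCs. Branched-chain amino acid breakdown had the highest median of them, with 17 of 21 genes higher in adipocytes, 9 marking them and a median log2 ratio of 2.19. With GC correction 16 were higher, 3 marked adipocytes and the median was 1.60. Hibch, which acts late in valine breakdown, measured 44.4, 78.0 and 71.5 CPM against 1.98, 2.29 and 1.23 CPM, and Bckdhb, of the complex that commits these amino acids to oxidation, was 17.8-fold higher. Of 19 fatty acid oxidation genes 11 were higher in adipocytes and 2 in SVCs (1 with GC correction) with a median of 0.79, led by Acadm, the medium chain acyl-CoA dehydrogenase, at 240 to 304 CPM against 13.4 to 18.6 CPM, and by Etfa, which passes its electrons on, at 10.5-fold. Of 22 genes of the TCA cycle 14 were higher in adipocytes with a median of 0.78, and of 73 nuclear subunits of oxidative phosphorylation 35 were higher in adipocytes and 6 in SVCs with a median of 0.53 (42 and 10 with GC correction). The 13 transcripts of the mitochondrial genome, whose GC content is low, had a median of 0.10 as counted and −1.81 with GC correction, when 12 were higher in SVCs. The most abundant of them, mt-Co1, measured 20785 to 23706 CPM in adipocytes and 19259 to 22360 CPM in SVCs, a log2 ratio of 0.10 that became −1.73 with correction. Those of mt-Cytb and mt-Nd4 changed from 1.34 and 1.17 to −0.54 and −1.05. Ucp1, the uncoupling protein of brown fat, was low in adipocytes and uneven, at 17.3, 18 and 2.30 CPM against 0 to 0.146 CPM in SVCs. Cidea and Cox8b, which accompany it in brown fat, were 27.2-fold and 13.4-fold higher in adipocytes at 7.33 to 15.8 and 18 to 43.3 CPM.

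Red blood cell transcripts were the most abundant marks of the SVC fraction per length of transcript. Hbb-bs, a beta globin, measured 14182, 10976 and 14775 CPM in SVCs and 652, 404 and 483 CPM in adipocytes, 26.0-fold higher in SVCs (log2 ratio −4.70 ± 0.30, edgeR adjusted p = 1.42e-05). Hba-a1, Hba-a2 and Hbb-bt were 25.5-fold, 31.5-fold and 29.1-fold higher, and Alas2, the heme synthesis enzyme of erythroid cells, measured 285, 261 and 352 CPM against 5.00, 5.33 and 5.08 CPM. All 6 erythroid markers marked SVCs with a median log2 ratio of −4.88. The red cell anion exchanger Slc4a1 was itself low at 1.75 to 3.58 CPM in SVCs. The globin genes are near-identical copies between which reads can be divided, and their levels are uncertain one by one.

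Myeloid genes formed the next group. Csf1r, the receptor that macrophages need to live, measured 2802, 2295 and 2885 CPM in SVCs against 254, 232 and 223 CPM in adipocytes, which was 11.3-fold higher in SVCs (log2 ratio −3.49 ± 0.19, edgeR adjusted p = 1.03e-05, GC corrected −2.59). Of 11 macrophage markers 10 were higher in SVCs and 1 marked them, against 36.8% and 5.2% of all genes tested. Their median was −1.53, and Csf1r had the lowest ratio of the list. Mertk, a receptor for dying cells, was not called at 7.93 to 13.4 CPM in adipocytes and 7.03 to 14.5 CPM in SVCs. Laptm5, a lysosomal protein of leukocytes, Cfp (properdin, a complement activator) and the secreted glutathione peroxidase Gpx3 marked SVCs at 7.73-fold, 8.94-fold and 7.12-fold. The complement recognition subunits C1qa and C1qb and the lysozyme Lyz2 were less unequal, at 4.18-fold, 4.76-fold and 2.15-fold. The macrophage markers still summed to 5132 to 7694 CPM in adipocytes against 16506 to 22947 CPM in SVCs. Their sum was highest in adipocyte library 407, as were those of MHC class II and T cell genes.

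Lysosomal genes followed the same direction. Of 29 such genes 22 were higher in SVCs and 2 in adipocytes, against 36.8% and 36.2% of all genes tested. Their median log2 ratio was −1. Psap, which activates sphingolipid breakdown, measured 17687, 14238 and 15700 CPM in SVCs and 5921, 4787 and 4318 CPM in adipocytes. The proteases Ctsb and Ctsd differed less, by 1.55-fold and 2-fold, and Ctsd did not differ with GC correction (log2 ratio 0.06, edgeR adjusted p = 0.829). Ctsl and Lamp2, both higher in adipocytes as counted with log2 ratios of 0.76 and 1.00, had ratios of −0.43 and −0.95 with GC correction, the second called in SVCs. Of 24 lysosomal genes with a promoter, 3 held TCACGTGA, the palindrome bound by TFEB, against 0.907% of all promoters.

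Antigen presentation through MHC class II was the list of the leukocyte group in which every member was called. All 10 genes were higher in SVCs with a median of −2.38, and all 10 stayed so with GC correction at a median of −1.86. H2-Aa, an alpha chain, measured 5071, 3175 and 5867 CPM in SVCs and 1655, 1043 and 734 CPM in adipocytes (log2 ratio −2.04 ± 0.36, edgeR adjusted p = 0.00138). Cd74, the invariant chain that guards the peptide groove, measured 11126, 7414 and 11334 CPM against 2846, 1821 and 1400 CPM. The beta chain H2-Ab1 was 5.22-fold higher in SVCs. Library 413 was the lowest SVC library for each of these genes and library 407 the highest adipocyte library. Ciita, the factor that switches class II genes on, was 14.6-fold higher in SVCs at 64.3 to 116 CPM against 5.32 to 7.35 CPM and was one of 2 members that marked SVCs, beside H2-Oa, and 1 member did with GC correction.

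The promoters of 4 class II genes are printed because every class II gene of the list was higher in SVCs. Class II transcription is known to act through short boxes close to the start. Whether these boxes bear on the difference between the fractions was not tested. Capitals mark GATTGG or its reverse complement CCAATC, the letters of the Y box bound by NF-Y, within the 120 bases before the start (RefSeq, GRCm38.p6). The stretches lie at chr17:34287824-34287943, minus strand, for H2-Aa, at chr17:34305747-34305866, plus strand, for H2-Eb1, at chr17:34153071-34153190, plus strand, for H2-DMb1 and at chr17:34092259-34092378, plus strand, for H2-Oa.
H2-Aa: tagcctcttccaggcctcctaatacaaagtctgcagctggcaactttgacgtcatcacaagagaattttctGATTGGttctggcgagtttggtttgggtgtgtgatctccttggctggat
H2-Eb1: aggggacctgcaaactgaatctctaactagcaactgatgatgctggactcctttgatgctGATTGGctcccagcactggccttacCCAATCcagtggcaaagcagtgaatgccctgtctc
H2-DMb1: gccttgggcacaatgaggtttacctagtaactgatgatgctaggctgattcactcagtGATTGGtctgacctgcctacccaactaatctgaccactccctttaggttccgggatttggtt
H2-Oa: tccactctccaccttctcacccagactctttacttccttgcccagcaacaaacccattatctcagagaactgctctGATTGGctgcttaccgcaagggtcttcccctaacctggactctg
The match began 49 bases before the start in H2-Aa, 60 and 35 in H2-Eb1, 62 in H2-DMb1 and 44 in H2-Oa. All 7 class II genes with a promoter in the table held it within 250 bases on either strand, against 16.6% of all 27025 promoters. It was held by 1 of 6 macrophage markers, 1 of 10 adipocyte markers and 4 of 24 lysosomal genes. Among genes of fat metabolism it was held by 4 of 12 for fatty acid synthesis and 4 of 16 for the lipid droplet and lipolysis. H2-Eb1, a beta chain, was 3.88-fold higher in SVCs, H2-DMb1, which helps to load peptides, 2.78-fold and H2-Oa, which restrains that loading, 12.1-fold.

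Fibroblast and matrix genes were the third large group of SVCs. For comparison, 36.8% of all genes tested were higher in SVCs and 5.2% marked them (30.8% and 1.99% with GC correction). Pi16, a marker of fibroblast progenitors, measured 1023, 910 and 1039 CPM in SVCs and 46.2, 42.3 and 43.0 CPM in adipocytes, a 22.6-fold difference (log2 ratio −4.50 ± 0.17, edgeR adjusted p = 8.23e-06). Of 31 collagen genes tested 24 were higher in SVCs, 11 marked them and 2 were higher in adipocytes, with a median of −1.88, and with GC correction 16 were higher in SVCs, 5 marked them and the median was −1.09. Col1a1, Col1a2 and Col6a2, chains of the fibrillar and the beaded filament collagens, were 11.7-fold, 8.38-fold and 11.4-fold higher in SVCs, and Col3a1 was 2.90-fold higher. Of 22 matrix proteins and remodelling enzymes 14 were higher in SVCs and 7 in adipocytes, and with GC correction 14 and 3. The 7 were near the 36.2% of all genes tested that were higher in adipocytes, a share of 29% with GC correction. Timp2, an inhibitor of matrix proteases, was 6.72-fold higher in SVCs, whereas Postn (periostin) was 4.8-fold higher in adipocytes as counted and had a log2 ratio of 0.13 with GC correction (edgeR adjusted p = 0.57). Sparc, a collagen-binding protein, was close in level, at 2134 to 2731 CPM in adipocytes and 3684 to 4307 CPM in SVCs, and its difference was not called with GC correction or without library 408 (edgeR adjusted p = 0.0799 in the latter case).

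Of 11 fibroblast and progenitor markers 8 were higher in SVCs, against 36.8% of all genes tested (30.8% with GC correction). The proteoglycan Lum and the protease Fap were higher in adipocytes as counted. Their log2 ratios of 0.76 and 0.95 became −0.77 and −0.80 with GC correction, when all 11 markers were higher in SVCs. Dcn (decorin) measured 1287, 1380 and 1015 CPM in adipocytes and 2042, 2227 and 2936 CPM in SVCs, a log2 ratio of −0.97 that became −3.06 with correction. Of 16 complement genes 12 were higher in SVCs and only Cfd was higher in adipocytes, and with GC correction 14 and 2. C3, the central component, measured 5737, 7848 and 6275 CPM in SVCs against 894, 882 and 757 CPM in adipocytes, and Serping1, the inhibitor of the first component, was 5.64-fold higher. The lipid transfer protein Pltp and the elongation factor Eef2 completed the most abundant marks per length, at 7.29-fold and 5.65-fold. Of those 10 marks only the 4 globins passed the 4-fold test with GC correction.

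Lymphocyte and surface cell genes were rarer. Their counts stand beside the 36.8% of all genes tested that were higher in SVCs. Of 9 T cell markers tested 7 were higher in SVCs with a median of −2.42, and the T cell receptor subunit Cd3d was not called, at 9.57, 2.81 and 0.945 CPM in adipocytes and 18.5, 4.92 and 21.7 CPM in SVCs. The kinase Lck measured 8.10, 5.18 and 1.06 CPM against 40.4, 18 and 43.9 CPM, with the same order of libraries, and the helper cell receptor Cd4 was 10.2-fold higher in SVCs. Of 7 B cell markers 5 were higher in SVCs, among them the immunoglobulin chains Ighm and Igkc at 3.30-fold and 5.03-fold and Cd79a, of the B cell receptor, at 33.6, 20.2 and 102 CPM against 3.54 to 8.04 CPM. Of 9 mesothelial markers 7 were higher in SVCs and none in adipocytes, led by Upk3b at 78.1 to 109 CPM against 6.55 to 11.3 CPM, and Msln was 5.83-fold higher. Of the 5 epididymal epithelium markers 2 were at 0 in all 6 libraries and their sum did not exceed 10.4 CPM. Neutrophil markers summed to at most 53.5 CPM and Schwann cell markers to at most 9.10 CPM in any library.

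Signalling, proliferation and rarer leukocyte lists were also counted. Over all genes tested 36.8% were higher in SVCs and 36.2% in adipocytes, and 30.8% and 29% with GC correction. A count near these shares is no trait of its list. Of 11 cytokines 4 were higher in SVCs and 2 in adipocytes (5 and 1 with GC correction), with Tgfb1 and Csf1, which act on matrix and on macrophages, 6.84-fold and 4.81-fold higher in SVCs at 499 to 595 and 184 to 207 CPM. Of 25 chemokines 12 were higher in SVCs and 5 in adipocytes, and with GC correction 11 and 1. Ccl6 was 2.86-fold higher in SVCs and Cxcl2, which attracts neutrophils, 3.72-fold higher in adipocytes. Of 10 chemokine receptors 4 were higher in SVCs (8 with GC correction) and none in adipocytes, led by Cxcr3, of T cells, at 21.3 to 38.8 CPM against 1.12 to 3.54 CPM. The median log2 ratios of cytokines and chemokines were −0.35 and −0.44, and 0.13 and 0.01 when libraries were scaled by their totals.

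The counts that follow also stand beside 36.8% of all genes higher in SVCs and 36.2% in adipocytes (30.8% and 29% with GC correction). Of 21 cell cycle genes 10 were higher in SVCs and 6 in adipocytes, with a median of −0.33 that was 0.08 under scaling by totals. With GC correction 9 were higher in SVCs and 1 in adipocytes. Mki67, a marker of cycling cells, measured 29.9, 19.0 and 16.7 CPM in adipocytes and 3.26, 6.14 and 3.58 CPM in SVCs, whereas Mcm5, of the replicative helicase, was 7.28-fold higher in SVCs. Of 21 lineage transcription factors of stromal cells 11 were higher in SVCs and 7 in adipocytes. The endothelial factor Sox17 was 6.54-fold higher in adipocytes, and the myeloid factor Spi1 was 4.15-fold higher in SVCs. Of 18 immediate early genes 5 were higher in SVCs and 1 in adipocytes as counted, and 7 were higher in adipocytes and none in SVCs with GC correction, as the median changed from −0.55 to 0.61. Of 82 ribosomal protein genes 25 were higher in SVCs and 8 in adipocytes with a median of −0.33 that was 0.11 under scaling by totals, and with GC correction the counts were 14 and 12. Of 5 mast cell markers 3 were higher in SVCs, as were 3 of 6 dendritic cell, 3 of 6 NK cell, 3 of 5 neutrophil and 2 of 5 monocyte markers, while 1 dendritic cell marker and none of the others was higher in adipocytes. With GC correction all 5 mast cell, all 6 NK cell, 4 dendritic cell, 3 neutrophil and 4 monocyte markers were higher in SVCs, and the NK cell median changed from −1.28 to −2.69.

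Vessel genes did not follow the pellet. Of 11 endothelial markers 9 were higher in adipocytes and 1 in SVCs, with a median log2 ratio of 1.43, and with GC correction the counts were the same and the median 1.53. Cdh5, the cadherin of endothelial junctions, measured 129, 200 and 186 CPM in adipocytes and 103, 86.6 and 70.1 CPM in SVCs, and the junction protein Cldn5 measured 367, 388 and 483 CPM against 224, 129 and 106 CPM. Pecam1 of the same junctions was 2.34-fold and Emcn, a sialomucin of capillaries and veins, 6.76-fold higher in adipocytes. Vwf, the clotting factor of endothelium, was the exception at 25.8, 33.5 and 26.1 CPM in adipocytes and 152, 139 and 125 CPM in SVCs. Among mural cell markers 3 of 9 were higher in adipocytes and 2 in SVCs, and with GC correction 5 and 1. Of all genes tested 36.2% and 36.8% were, and 29% and 30.8% with GC correction. Rgs5, of pericytes, measured 239, 311 and 279 CPM in adipocytes and 12.1, 13.8 and 12.5 CPM in SVCs, 21.6-fold higher in adipocytes (log2 ratio 4.43 ± 0.17, edgeR adjusted p = 8.23e-06, GC corrected 2.78). Notch3 and the smooth muscle calponin Cnn1 were 3.68-fold and 5.19-fold higher in SVCs, the call for Notch3 ending with GC correction (edgeR adjusted p = 0.116), and Acta2 (smooth muscle actin) was not called at 123 to 180 against 172 to 189 CPM. Whether vessel cells stayed with the floating adipocytes was not tested.

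Genes of lipid-associated macrophages were found on both sides. Of 8 such markers 4 were higher in SVCs and 3 in adipocytes, and with GC correction 4 and 1. The counted split is near that of all genes, 36.8% and 36.2%, which were 30.8% and 29% with GC correction. Gpnmb measured 4404, 4766 and 3737 CPM in SVCs and 1018, 1085 and 1007 CPM in adipocytes, and the lipid receptor Trem2 and the galectin Lgals3 were 1.97-fold and 2.24-fold higher in SVCs, of which Lgals3 was not called with GC correction (edgeR adjusted p = 0.468). Spp1 (osteopontin) was 4.50-fold higher in adipocytes at 92.7, 59.7 and 75.1 CPM against 13.1, 22.5 and 15.1 CPM. The elastase Mmp12 and the proton pump subunit Atp6v0d2 were higher in adipocytes as counted, with log2 ratios of 1.41 and 1.37, and had ratios of −0.36 and −0.21 with GC correction. Of 8 resident macrophage markers 7 were higher in SVCs with a median of −1.97. Cbr2, a carbonyl reductase, was 17.1-fold and the folate receptor Folr2 5.06-fold higher, and the mannose receptor Mrc1, level as counted with a log2 ratio of 0.03, had −1.29 with GC correction.

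**Figure D3:**
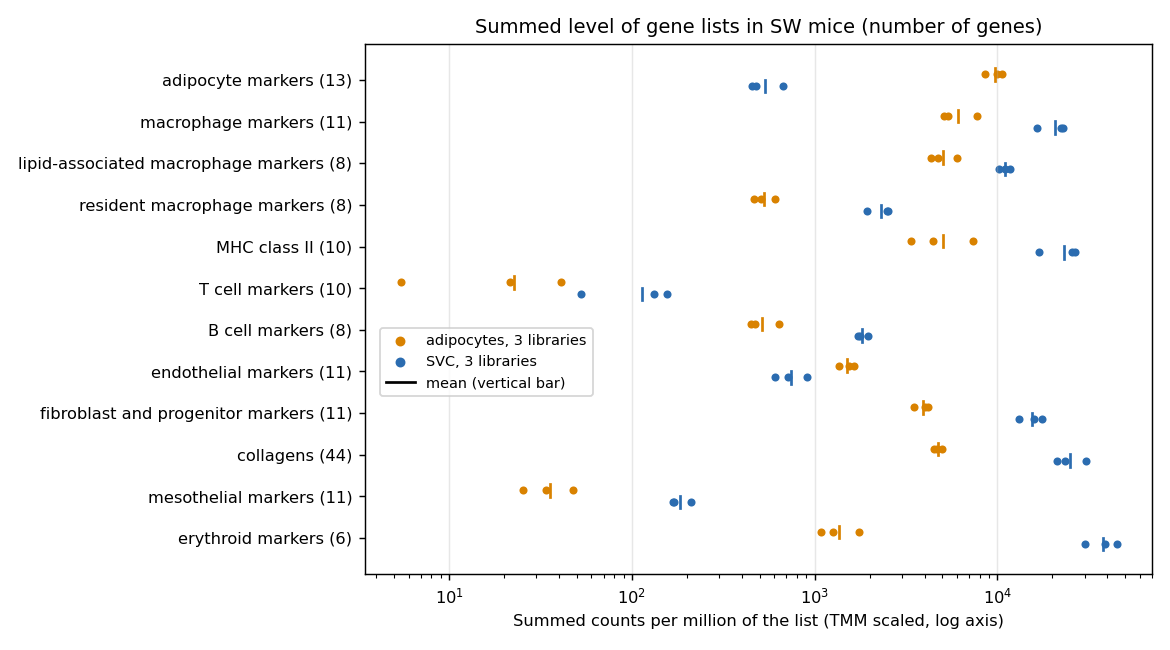
Summed TMM scaled CPM (log axis) of 12 gene lists in each library, with vertical bars at the means and the number of genes in brackets. Adipocyte markers at 8579 to 10561 CPM and endothelial markers at 1354 to 1636 CPM are higher in adipocytes, and the other lists are higher in SVCs.

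Several families divided their members between the fractions. Among glucose transporters the insulin-responsive Slc2a4 measured 47.1, 67.0 and 79.5 CPM in adipocytes and 9.79, 7.26 and 6.78 CPM in SVCs, whereas Slc2a1, Slc2a3 and Slc2a6 were 1.96-fold, 6.52-fold and 6.89-fold higher in SVCs. The difference for Slc2a1 was not called with GC correction (log2 ratio −0.12, edgeR adjusted p = 0.515). Hexokinases divided alike, with Hk2 at 28.1 to 38.9 CPM in adipocytes against 3.21 to 5.94 CPM and Hk1 and Hk3 6.18-fold and 4.63-fold higher in SVCs. Of 19 glycolysis genes, hexokinases included, 12 were higher in SVCs and 2 in adipocytes with a median of −0.91. With GC correction 6 and 5 were, with a median of −0.12, near the 30.8% and 29% of all genes. Gapdh and Pkm were 2.07-fold and 2.90-fold higher in SVCs as counted, and neither was called after correction, while the log2 ratio of Aldoa changed from −0.35 to 0.80.

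Perilipins coat lipid droplets. Plin1, Plin4 and Plin5 were 11.8-fold, 15.4-fold and 7.68-fold higher in adipocytes, whereas Plin2 and Plin3, which also coat droplets of other cells, were 1.81-fold and 2.96-fold higher in SVCs. Plin2 measured 1227, 1034 and 1032 CPM in adipocytes and 2222, 1685 and 2039 CPM in SVCs, and its difference was not called with GC correction (edgeR adjusted p = 0.134). The beta adrenergic receptor Adrb1 was not called, with a log2 ratio of 0.23 and levels of 0.690 to 1.73 CPM over all 6 libraries, but it was called with GC correction at 1.52 (edgeR adjusted p = 0.0174). Pde3b, through which insulin lowers cyclic AMP, measured 75.0, 133 and 119 CPM in adipocytes against 3.50, 6.38 and 3.82 CPM, while Pde3a was below 3.08 CPM throughout and 5.30-fold higher in SVCs. Dgat2 and Dgat1, which close triglyceride synthesis, were 16.3-fold and 3.54-fold higher in adipocytes. Cpt1a, which admits fatty acids to mitochondria, was 2.26-fold higher in SVCs.

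Among the kinases that relay insulin, Akt1 and Akt2 were 3.58-fold and 2.37-fold higher in SVCs as counted. With GC correction Akt1 was called with a log2 ratio of −0.50, and Akt2 was not with −0.24. Of 15 adipogenic transcription factors 7 were higher in adipocytes and 3 in SVCs, against 36.2% and 36.8% of all genes tested. Their median was 0.28. That median was 0.12 without library 412, 0.67 without library 413, 0.66 without library 407 and 1.08 with GC correction. With the correction 10 were higher in adipocytes and 2 in SVCs, against 29% and 30.8% of all genes. Pparg, which drives adipocyte formation, measured 93.2, 122 and 126 CPM in adipocytes and 21.1, 22.3 and 25.2 CPM in SVCs (log2 ratio 2.32 ± 0.17, edgeR adjusted p = 2.03e-05). Cebpa was level as counted, at 243 to 355 CPM against 268 to 318 CPM, and had a log2 ratio of 1.55 with GC correction. Cebpb was 2.05-fold higher in adipocytes and Cebpd 2.87-fold higher in SVCs. The log2 ratios of the partner receptors Rxra and Nr1h3 changed from −1.01 and −0.54 as counted to 0.15 and 0.60 with GC correction.

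**Figure D4:**
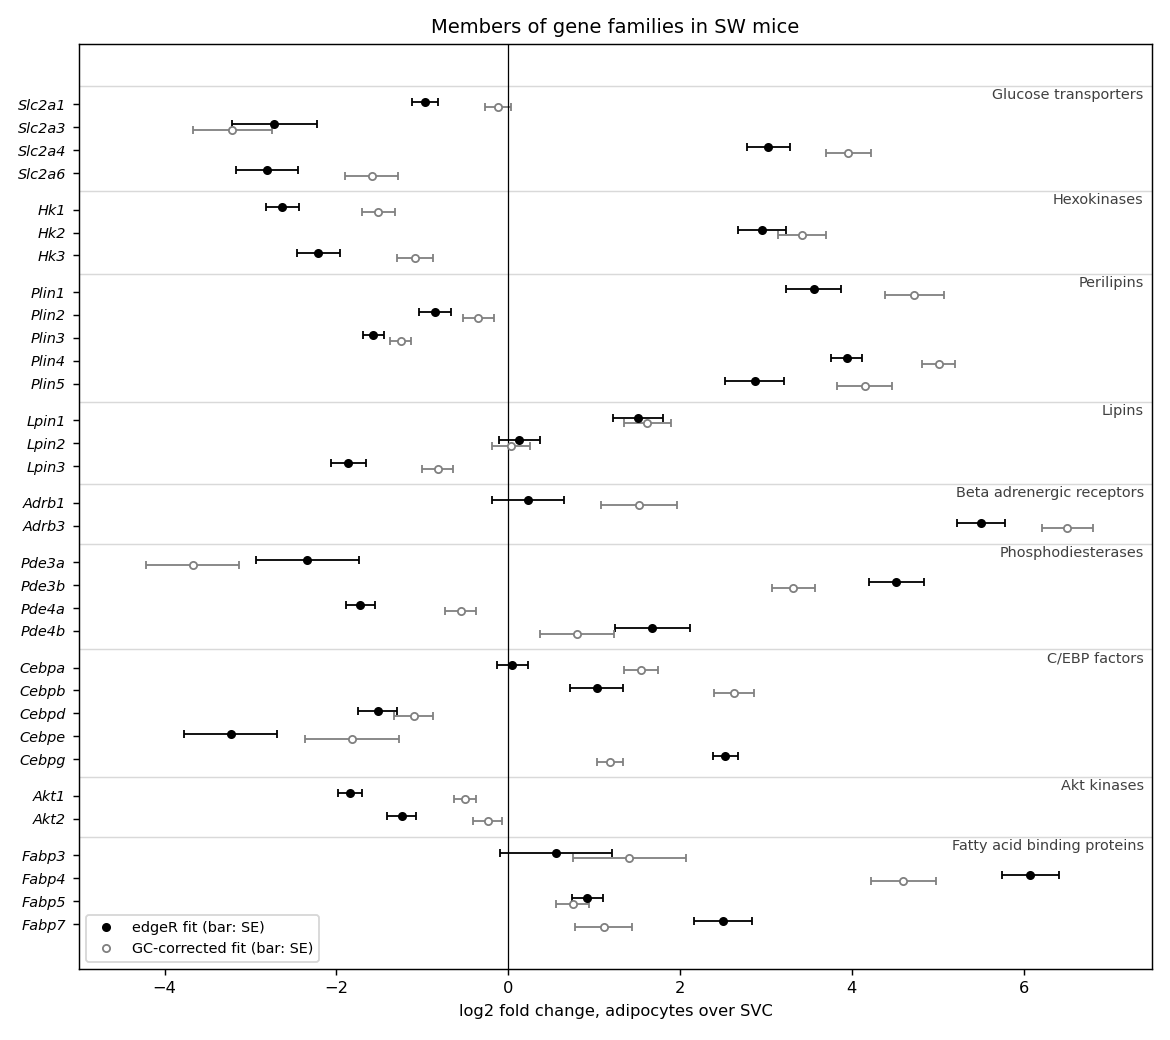
Log2 ratio of adipocytes to SVCs (horizontal axis) for members of 9 gene families, as counted (filled) and GC corrected (open), with bars for the standard error of the fit. Slc2a4, Hk2, Plin1, Plin4, Plin5 and Pde3b lie on the adipocyte side in both fits beside relatives on the SVC side, while Cebpa rises from 0.05 to 1.55 with correction.

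The vacuolar proton pump was examined because the study followed its subunit Atp6v0a1. The pump acidifies lysosomes and other compartments. Atp6v0a1, a membrane subunit, measured 245, 209 and 225 CPM in adipocytes and 686, 579 and 595 CPM in SVCs of SW mice, 2.74-fold higher in SVCs (log2 ratio −1.45 ± 0.15, edgeR adjusted p = 0.000102, GC corrected −2.08). Every SVC library lay above every adipocyte library. Of 19 subunits tested 7 were higher in adipocytes and 7 in SVCs, near the 36.2% and 36.8% of all genes tested. Their median log2 ratio was −0.31 and became 0.13 when libraries were scaled by their totals. With GC correction 4 were higher in adipocytes and 8 in SVCs, against 29% and 30.8% of all genes. The a subunit Atp6v0a2, the d subunit Atp6v0d1 and the accessory protein Atp6ap1 were 4.72-fold, 2.61-fold and 3.21-fold higher in SVCs in both fits. Of the catalytic domain, Atp6v1a stayed higher in adipocytes in both fits, with log2 ratios of 1.79 and 0.68. Atp6v1h, Atp6v1c1 and the accessory protein Atp6ap2 had ratios of 2.06, 1.42 and 1.81 as counted and of −0.02, 0.27 and 0.12 with correction, none of the latter called.

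**Figure D5:**
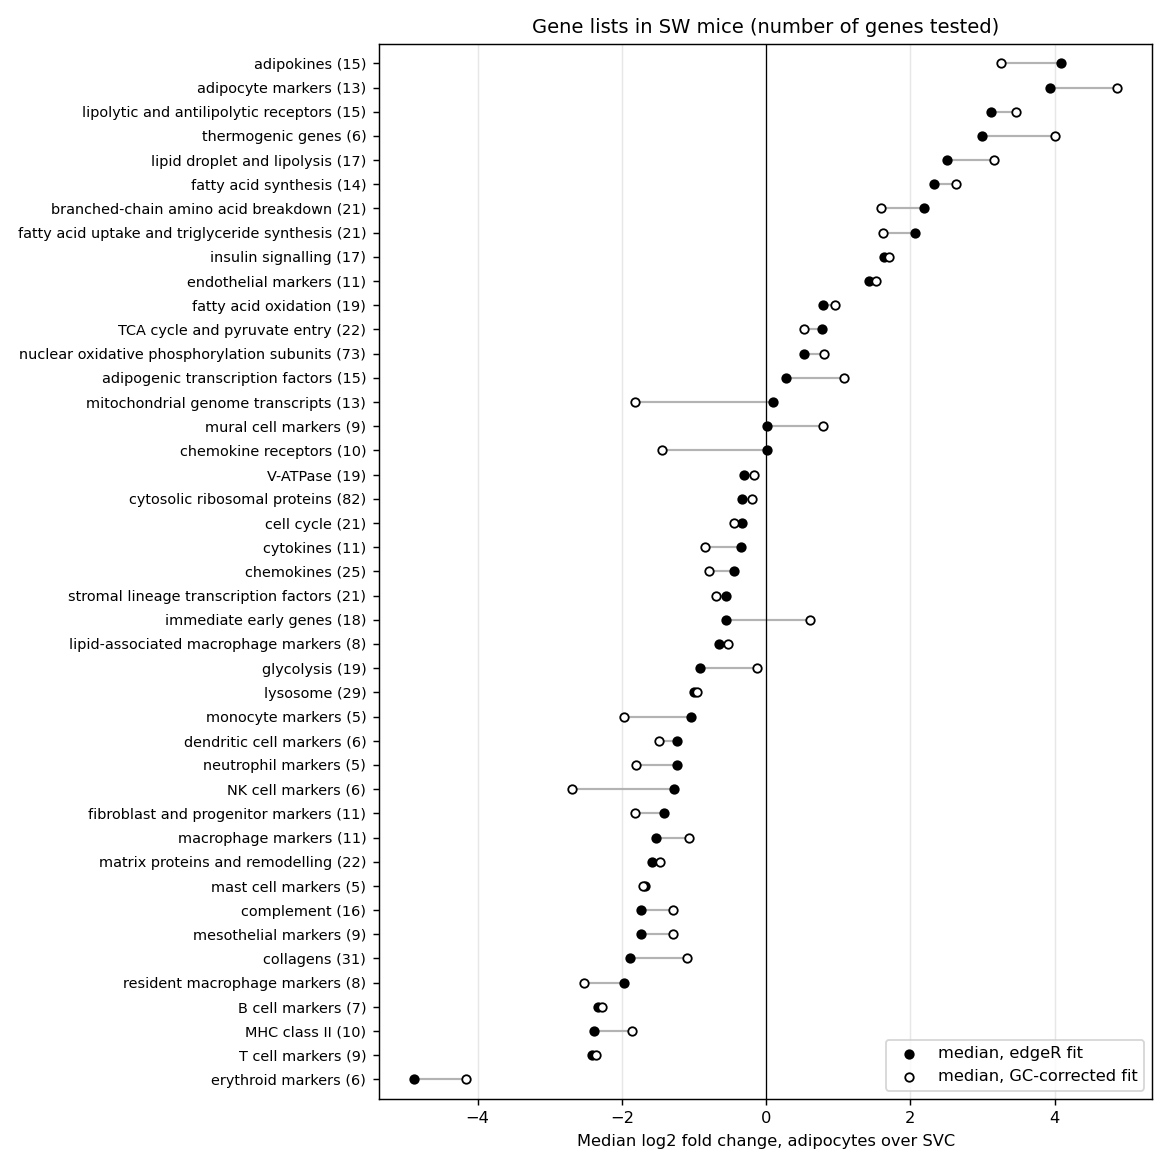
Median log2 ratio of adipocytes to SVCs for each list of genes as counted (filled) and GC corrected (open), with the number of genes tested in brackets. Adipocyte markers have medians of 3.94 and 4.87 and erythroid markers of −4.88 and −4.16, while mitochondrial genome transcripts move from 0.10 to −1.81.

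The difference between fractions was then set against that of obese HFD mice. In a fit of 11 libraries the ratio of adipocytes to SVCs differed between SW and HFD mice for 3963 of 15949 genes (24.8%), and for 1503 (9.42%) with GC correction, by edgeR's test of the interaction with an adjusted p under 0.05. Run layout also differed between the diets. SVC records held 3 single and 1 paired-end run in HFD mice and 3 of each in SW mice. Adipocyte records held 1 single run in HFD mice and were paired-end alone in SW mice. Which records entered which library is not given, so diet and layout cannot be told apart. The HFD arm rests on 2 SVC libraries that were themselves unlike. Mitochondrial transcripts took 6.34% of one and 33.5% of the other, and hemoglobin transcripts 0.287% and 3.09%. Without the library of low mitochondrial share the count was 2213 and without that of high share it was 6222. It was also lower, at 2127 to 2633, without SVC library 412, without adipocyte library 408 or without either of 2 HFD adipocyte libraries. In all 15 libraries scaled together Fabp4 measured 6655, 9934 and 8365 CPM in HFD adipocytes and 1125 and 626 CPM in HFD SVCs, and its ratio was larger in SW mice by 2.88 on the log2 scale (edgeR adjusted p = 0.00485, GC corrected 1.82, adjusted p = 0.0423). The SW means on that scale were 15750 CPM in adipocytes and 223 CPM in SVCs, higher and lower in turn than every HFD library of the same fraction.

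Matrix genes also moved apart between the fractions. Col6a2 measured 598, 650 and 622 CPM in HFD adipocytes and 1083 and 1016 CPM in HFD SVCs, against SW means of 370 and 4069 CPM, an interaction of −2.72 (edgeR adjusted p = 0.00243, GC corrected −2.13). Of 31 collagens tested 21 differed in this way and 12 did with GC correction. Csf1r measured 530, 412 and 510 CPM in HFD adipocytes and 741 and 1764 CPM in HFD SVCs, against SW means of 257 and 2783 CPM (interaction −2.07, edgeR adjusted p = 0.0109). Gpnmb stood at 1795 to 2527 CPM in HFD adipocytes and 2913 and 2786 CPM in HFD SVCs, with SW means of 1127 and 4494 CPM. None of the 13 adipocyte markers and none of the 10 class II genes passed the interaction test in either fit. The interaction was 0.12 for Lep, −0.35 for Adipoq and 0.33 for Scd1 (edgeR adjusted p = 0.881, 0.714 and 0.642). That of Atp6v0a1 was −1.01 (edgeR adjusted p = 0.0254), with 297 to 349 CPM in HFD adipocytes and 352 and 508 CPM in HFD SVCs.

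Some genes were found in 1 fraction alone. There were 239 genes at 0 in all 3 SVC libraries and detected in all 3 adipocyte libraries, of which 29 had a mean of at least 10 counts and 18 of these were unnamed models. In the other direction there were 210, of which 51 reached that mean and 25 were unnamed. The detection did not follow the fraction in HFD mice, where 21 of the 29 were present in an SVC library and 30 of the 51 in an adipocyte library. Cd47, a membrane protein of nearly all cells, was an example near 0, at 59.6, 57.6 and 38.3 CPM in SW adipocytes and 0.466, 0 and 0 CPM in SW SVCs. It stood at 44.7 CPM in the HFD SVC library of low mitochondrial share and 4.23 to 8.84 CPM in HFD adipocytes. These HFD values are scaled over all 15 libraries and the SW values over the SW libraries alone. The models Gm10359, Gm12671 and Gm7336 held equal values, 145, 109 and 121 CPM in SVCs and 0 in adipocytes, which near-identical copies that share reads would give. How reads were assigned to copies was not tested.

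Germ cell transcripts marked SVCs at levels that were uneven among libraries. Prm2 and Prm1, the protamines that pack sperm DNA, and the testis genes Tcp11, Gsg1 and Hspb9 were the largest folds among SVC marks with at least 50 CPM. Prm2 measured 342, 280 and 17.8 CPM in SVCs and 0.948, 4.29 and 3.37 CPM in adipocytes (log2 ratio −6.15 ± 1.12, edgeR adjusted p = 0.00167). SVC library 414 was also far below the others for Prm1 at 6.54 CPM against 175 and 230 CPM, for Tcp11 at 10.1 against 156 and 200 CPM and for Gsg1 at 12.3 against 188 and 145 CPM. In HFD mice, on the scale of all 15 libraries, Prm2 stood at 2.09 and 11 CPM in SVCs and at 0.134 to 0.445 CPM in adipocytes. None of these 5 genes passed the 4-fold test with GC correction, and with limma-voom Prm1, Tcp11 and Hspb9 were not called (adjusted p = 0.0947, 0.0616 and 0.0888). The epididymis lies beside this fat pad, and carry-over of its contents was not tested.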

How the data were processed

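Gene level RNA sequencing tables of adipocytes and SVCs from epididymal fat were analysed. Per the labels and the study's methods, the authors mapped reads to the mouse transcriptome with Bowtie2 and deposited RSEM estimated counts per gene, written as whole numbers. The submitters' processing notes name the build mm9 and limma, and give no versions. Strandedness and whether single and paired-end runs of a library were added up are not given in the sources used here. Both tables held the same 39017 gene identifiers, of which 37607 were found in GENCODE M21, and 164 symbols stood for more than 1 identifier. Library numbers come from the column names, which name the group but no labelled replicate, so columns were tied to groups and 3 columns of no labelled group were not used.

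Genes passing filterByExpr with a minimum count of 10 were scaled by TMM (trimmed mean of M values) and tested with edgeR 4.0.16 (robust quasi-likelihood F-test, and glmTreat against a log2 ratio of 2, which is a fold of 4) in R 4.3.3, with Benjamini-Hochberg adjusted p under 0.05. The 6 SW libraries were fitted alone, and the interaction with 5 HFD libraries in a second fit of 11. Ratios are adipocytes over SVCs. CPM of single SW libraries are scaled over the 6 SW libraries. HFD and LFD values, and the SW means set beside them, are scaled over all 15 libraries. Fitted ratios depend on the prior count where a fraction is near 0 and are then no bound. The GC correction was a loess offset for each library (span 0.5), with the GC content known for 99.1% of tested genes. The steps were tested on simulated data with known folds. Floors of 3 counts cover counting error only.

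Members and gene lists were chosen with earlier results of these data known. There were 18 lists of cell markers, 27 of functions and 28 of gene families. Genes were named as the 10 most abundant marks per length of each fraction, the 5 largest folds among marks of at least 50 CPM with over 3 counts in every library of the other fraction, the most abundant genes at 0 in 1 fraction, all families and proton pump subunits, the 3 most abundant members of each other list with up to 3 called against its median, and the 5 largest interactions of each sign among abundant marks, where unnamed models need not be named. Some genes that the rule would name are not reported here. Acadm, Alas2, Bckdhb, Cd79a, Cfp, Ciita, Col1a1, Csf1r, Emcn, Etfa, Ffar2, H2-DMb1, H2-Eb1, H2-Oa, Hcar2, Hibch, Insr, Lep, Lipe, Me1, Mertk, Mrc1, Pi16, Pnpla3, Ptger3, Retn, Slc4a1, Trem2, Tshr, mt-Cytb and mt-Nd4 were added after their values were seen. Promoters came from RefSeq (GRCm38.p6), not from the authors' build, and no coordinate of the files was used. In them 6 motifs were searched on both strands, of which GAGGAAGT and a repeat of AGGTCA are not described above. GAGGAAGT was in 1 of 6 macrophage markers, 1 of 12 fatty acid synthesis genes and 2.79% of all promoters. It was in none of 24 lysosomal genes or 10 adipocyte markers. The repeat was in 0.0407% of all promoters and in no gene of the lists searched. Alternatives were DESeq2 1.42.0, limma-voom (limma 3.58.1), other scalings and filters, thinning, offsets for length, fold thresholds of 2 and 8 and each library left out. The GC correction together with a library left out was added after seeing the data.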

Additional observations from a re-analysis of the deposited data

Results flagged for a closer look

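For 60 of 174 genes named in the text or plotted, some of them chosen for the size of this difference, the ratio of adipocytes to SVCs differed between SW and HFD mice by edgeR's interaction test (highest adjusted p = 0.0491), which called 24.8% of all genes and 9.42% with GC correction. The values below are that difference on the log2 scale, above 0 where the ratio was larger in SW mice (28 genes) and below 0 where it was smaller (32 genes). With GC correction 37 of them were still called, and the sign turned for Atp6v0d2, Atp6v1h and Emcn. The HFD arm holds 2 unlike SVC libraries.

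Among genes of fat metabolism that were still called with GC correction, the difference was 2.88 for Fabp4, 1.95 for Acadm, 1.63 for Etfa, 1.64 for Dbi and 1.03 for Pparg. For Bckdhb and Hibch, of branched-chain amino acid breakdown, it was 2.03 and 2.18, also called in either fit. Hibch measured 39.8, 69.5 and 46.9 CPM in HFD adipocytes and 8.38 and 4.98 CPM in HFD SVCs, against SW means of 70.3 and 1.91 CPM. The difference was −1.19 for Cpt1a, −2.04 for Hk1 and −3.32 for the low Pde3a. For Lpl, Cd36 and Pde3b it was 1.68, 1.89 and 1.98, for Npr1, Hk3 and Rxra −1.11, −1.18 and −1.15, and for the mitochondrial mt-Cytb 2.47, none of these called with GC correction. Cebpb had 2.48, called in either fit.

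Over whole lists the test called 12 of 22 matrix, 4 of 16 complement and 3 of 11 macrophage genes, and 8, 3 and 2 with GC correction. Of all genes it called 24.8%, and 9.42% with GC correction. As counted, the complement and macrophage lists were near that share and the matrix list above it. The difference was −2.46 for Col1a1, −2.22 for Col1a2, −2.72 for Col6a2, −3.92 for Col6a6, −1.57 for Timp2, −1.97 for C3, −1.67 for Serping1, −1.85 for Gpx3, −2.07 for Csf1r, −1.68 for Gpnmb and −3.37 for Lcn2, all called in either fit. Col6a6, a collagen VI chain, measured 0.690 to 2.27 CPM in SW adipocytes and 36.1 to 76.1 CPM in SW SVCs, and 4.97 to 9.80 and 12.8 to 17.3 CPM in HFD mice. Nynrin, whose difference was −4.45, measured 61.6, 52.4 and 57.2 CPM in SW SVCs but 3.57 and 23.3 CPM in HFD SVCs. Called only without the correction were Sparc at −1.45, Pltp at −1.46, Eef2 at −1.68, Csf1 at −1.37 and Folr2 at −1.22, and in the other direction Postn at 1.76 and Spp1 at 2.02.

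Vessel and cycling genes divided. Vwf had −2.57, Notch3 −2.53 and Acta2 −1.32, whereas Sox17 had 2.20 and Mki67 2.07, all called in either fit, and Rgs5 at 2.33, Emcn at 1.23 and the endothelial Apold1 at 3.98 were not called with GC correction. Mki67 measured 41.9 to 67.5 CPM in HFD adipocytes and 55.2 and 35.3 CPM in HFD SVCs, against SW means of 23.8 and 4.52 CPM, which lie below every HFD library of the same fraction. Vwf stood at 33.5 and 33.2 CPM in HFD SVCs against a mean of 145 CPM in SW SVCs.

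Of the proton pump, Atp6v0a1 had −1.01 and Atp6v0a2 −2.11 in either fit, while Atp6ap1 at −1.08, Atp6ap2 at 1.55, Atp6v0d2 at 1.00, Atp6v1c1 at 1.08 and Atp6v1h at 1.53 were not called with the correction. Some values rested on libraries that lay far apart. Cxcl2, with 5.52, measured 481 and 6.94 CPM in the HFD SVC libraries. Neat1, a nuclear noncoding RNA with 3.91, measured 540 and 172 CPM in them against 23.8 to 72.5 CPM in SW SVCs. Metazoa_SRP, the signal recognition particle RNA with 5.15 under each of its identifiers, measured 613 CPM in SW adipocyte library 407 against 50 and 65 CPM in the other SW adipocyte libraries. The differences of Cd47 at 10.72 and of the models Gm10359, Gm12671 and Gm7336 at −12.86 each rest on libraries at or near 0 and are no bound.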

How the results depend on the processing

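No paired analysis was possible because the column names carry none of the labelled replicate numbers. With GC correction 386 genes marked adipocytes, 283 marked SVCs and 1503 interactions were called. In the same order limma-voom gave 355 and 337 marks, library totals alone 1268 and 394 marks and 1901 interactions, a 2-fold threshold 3170 and 2960 marks, and an 8-fold threshold 149 and 81. With at least 10 counts required in every library 380 genes marked SVCs. Leaving out 1 library, with or without GC correction, gave 3406 to 5383 genes higher in adipocytes, 275 to 1141 marks of adipocytes and 143 to 1436 marks of SVCs, and without the correction 2127 to 6222 interactions. The lowest of these counts of marks were GC corrected, and the cause of these shifts was not tested.

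Of 174 genes in 19 alternatives, directions turned under GC correction alone, for 16 genes. Their log2 ratios became 0.80 (Aldoa), −0.21 (Atp6v0d2), −0.02 (Atp6v1h), 0.06 (Ctsd), −0.43 (Ctsl), −0.80 (Fap), −0.95 (Lamp2), −0.77 (Lum), −0.36 (Mmp12), −1.29 (Mrc1), 0.60 (Nr1h3), 0.15 (Rxra), 1.08 (Srebf1), −1.73 (mt-Co1), −0.54 (mt-Cytb) and −1.05 (mt-Nd4). The same correction ended 12 further calls and every other alternative at most 4. Without library 408 the calls of Ctsb, Lyz2, Nr1h3 and Sparc ended, without library 409 those of Ctsb and Lyz2, and without library 412 or 414 that of Ctsb. Cd3d was called without library 407 or 413. Transcripts at under 3 counts in a library, below 0.135 to 0.296 CPM, are not resolved.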

Other observations

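Lean mice on the low fat diet (LFD) contributed 3 adipocyte libraries and 1 SVC library, which has no replicate, so no test was made between their fractions. On the scale of all 15 libraries Fabp4 measured 16085, 23948 and 23279 CPM in LFD adipocytes and 229 CPM in LFD SVCs, beside SW means of 15750 and 223 CPM. Lep measured 922 to 1506 CPM against 15.4 CPM, and Scd1 20176 to 22617 CPM against 443 CPM. The order of the fractions was thus the same in these genes. Of vessel genes, Cdh5 measured 398, 358 and 292 CPM in LFD adipocytes against 196 CPM, Pecam1 349 to 437 CPM against 125 CPM, Rgs5 915, 864 and 674 CPM against 31.4 CPM and Vwf 62.3 to 92.2 CPM against 626 CPM.

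Of lipid-associated macrophage genes, Gpnmb measured 20.9 to 88.7 CPM in LFD adipocytes and 492 CPM in LFD SVCs, beside SW means of 1127 and 4494 CPM. Spp1 measured 1.90 to 4.01 CPM and 3.47 CPM, beside SW means of 82.4 and 17.6 CPM. The class II gene H2-Aa measured 278 to 421 CPM in LFD adipocytes and 4405 CPM in LFD SVCs, close in SVCs to the SW mean of 4926 CPM, whereas the SW mean in adipocytes was 1243 CPM. Prm2 measured 0.184 to 0.837 CPM in LFD adipocytes and 12.1 CPM in LFD SVCs.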
